A study of Mus musculus with 8 samples.

Results

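The genes described here are the UDP-glucuronosyltransferases (Ugt), glutathione S-transferases (Gst), sulfotransferases (Sult) and carboxylesterases (Ces) measured in mouse colon epithelial cells. They were chosen by gene symbol, with the row of highest mean kept for each gene, and numbered 67 of the 19505 genes with a symbol: 8 Ugt, 21 Gst, 21 Sult and 17 Ces. The 8 Ugt genes were 1 Ugt2a and 7 Ugt2b genes, with no Ugt1 gene among them. RNA was measured on 8 Affymetrix arrays, 2 in each of 4 groups of C57BL/6J mice. The groups were wild type (WT) untreated, WT given 3.5% dextran sulfate sodium (DSS) in the drinking water for 2 days, SMS2 knockout (KO) untreated, and SMS2 KO given the same DSS. DSS is a polymer that injures the colon lining, and SMS2 (gene symbol Sgms2) is an enzyme that makes sphingomyelin from ceramide. The labels call the 2 samples of a group biological replicates and do not say whether each was 1 mouse or a pool, so a p-value here reflects only how these samples spread. They also give neither age, nor the allele of the knockout, nor how the cells were isolated.

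Conjugating enzymes attach a polar group to drugs, steroids, bile acids, dietary compounds and reactive lipid products, which makes them easier to excrete. Ugt enzymes in the endoplasmic reticulum transfer glucuronic acid from UDP-glucuronate, Sult enzymes in the cytosol transfer sulfate from the donor PAPS, and Gst enzymes add glutathione. Carboxylesterases cleave esters and amides, among them prodrugs and stored lipids, and often expose the group that is then conjugated. In the gut these enzymes meet dietary and microbial compounds before they reach the liver.

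Values are log2 signals, differences are in log2 units with the standard error (SE) of a limma linear model, and its p-values were adjusted by Benjamini and Hochberg's method across the 13003 genes that were tested. A gene passed when its adjusted p was under 0.05. Of the 67 genes, 44 had a mean over the lowest 33.3% of all genes and were tested, namely 5 Ugt, 19 Gst, 8 Sult and 12 Ces. A further count concerns the array background, set in each array at the level that 75% of its negative-control rows did not exceed, which lay between 6.00 and 6.24. In all 4 groups, 26 of the 67 genes lay at or below it. Signals of different genes depend on their probes, so each gene was compared only with itself across arrays. Close relatives within each family can share probe signal, although no 2 of the 67 genes had identical values.

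Several facts of the arrays touch every comparison below. Sgms2 gave 10.79 and 10.76 in untreated WT, 11.27 and 10.90 in WT given DSS, 7.30 and 7.33 in untreated KO, and 7.35 and 6.47 in KO with DSS, so that every KO array lay below every WT array. The Y-linked gene Eif2s3y was between 10.19 and 11.44 in the 4 DSS arrays and between 2.81 and 3.17 in the 4 untreated arrays. Uty and Kdm5d, also Y-linked, followed the same split. The labels give no sex, and a DSS difference cannot be told apart from a difference between male and female animals in any result below. The general epithelial list (10 genes, such as Epcam, Cdh1 and Krt8) had mean signals between 16.08 and 16.33 in all arrays, and none of its genes passed for DSS. The liver list (10 genes) lay between 5.85 and 6.17, with 6 of its genes at or below background in every group. The fibroblast and matrix list (15 genes) had means of 7.64 to 7.94 in untreated WT, 10.24 to 10.75 in WT given DSS, 8.83 to 9.12 in untreated KO and 10.15 to 11.13 in KO with DSS, and 11 of its genes rose in WT and 7 in KO. Without DSS all 15 of these genes were higher in KO than in WT (median 1.15), and 3 passed. The small intestine list (12 genes) had means of 7.83 to 7.88, 7.11 to 7.22, 7.89 to 8.07 and 7.04 to 7.14 in the same order, with Lct, Apoc3 and Defa24 at or below background throughout, and 5 of its 9 tested genes fell in WT and 4 in KO. The colonocyte list (19 genes) had means of 15.23 to 15.46, 14.91 to 15.06, 15.41 to 15.52 and 14.95 to 14.96, with 4 genes lower and 1 higher in WT and 1 lower in KO. The list of stem and dividing cells (13 genes) had means of 8.94 to 9.10, 7.76 to 7.83, 8.95 to 9.05 and 7.98 to 8.49, with Ascl2 and Smoc2 at or below background, and 7 of its 12 tested genes fell in WT and 2 in KO. The smooth muscle list (11 genes) had means of 9.83 to 10.71, 10.74 to 11.22, 12.02 to 12.21 and 11.11 to 12.96. All 11 of its genes were higher in KO than in WT, untreated and with DSS (medians 1.91 and 0.99), and 1 passed, untreated. The endothelium list (10 genes) had means of 6.17 to 6.26, 7.65 to 7.94, 6.96 to 7.23 and 7.91 to 8.31. Of its genes 6 rose with DSS in WT and 3 in KO, and 1 passed as higher in untreated KO. The exocrine pancreas list (12 genes) stood at 11.39 in WT DSS replicate 1 and 7.27 in KO DSS replicate 1, against 5.86 to 6.26 in the other arrays. The part of these lists in the results below was not tested, and calls that changed without the 2 arrays of high pancreatic signal are given as such. Leaving them out leaves 1 DSS array in each genotype, which is then assumed to vary like the other groups. In such bulk samples, fewer cells of a type and less RNA per cell cannot be told apart.

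**Figure D1:**
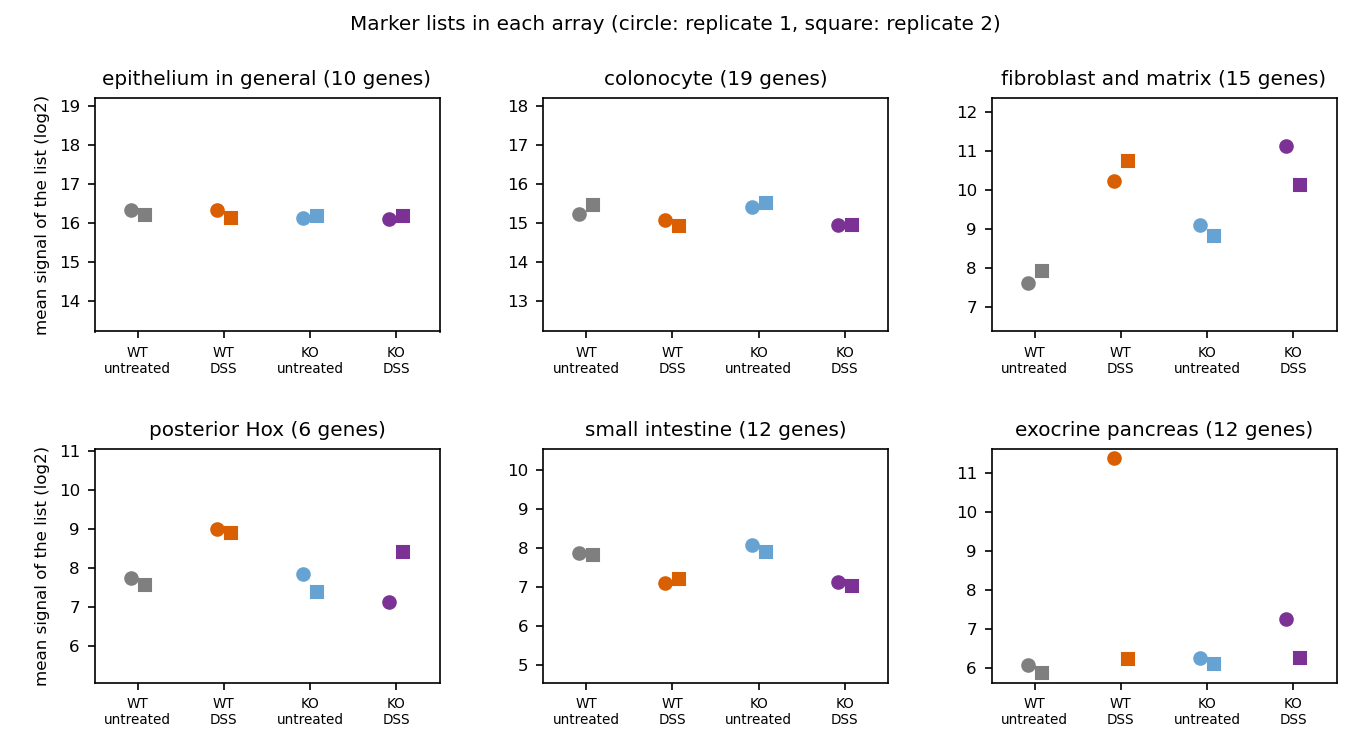
Mean log2 signal of 6 marker lists in each array, by group, with replicate 1 as a circle and replicate 2 as a square. The epithelial list stayed between 16.08 and 16.33, while the fibroblast list was higher in the DSS arrays of both genotypes. The posterior Hox list was higher in both WT DSS arrays and in KO DSS replicate 2, and not in KO DSS replicate 1.

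A small number of these enzymes were lower with DSS. In WT, 5 of the 44 tested genes passed (11.4%), 4 lower and 1 higher, where 4.04% of all genes tested passed (1.12% lower and 2.91% higher). The carboxylesterases Ces1g and Ces1f and the glucuronosyltransferases Ugt2b5 and Ugt2b36 fell, and the carboxylesterase Ces2g rose. In KO, Ces1g alone passed, 1 of 44 (2.27%) against 0.931% of all genes (0.392% lower). With the DSS difference averaged over both genotypes, 9 of 44 (20.5%) passed against 5.52% of all genes (2.05% lower), and all 9 were lower: Ces1g, Ces1f, Ces1d, Ces2e, Ces2b, Ugt2b5, Ugt2b36, Sult2b1 and Sult1c2. By family these were 5 of 12 Ces, 2 of 5 Ugt, 2 of 8 Sult and 0 of 19 Gst. The median DSS difference of the 44 genes was -0.35 in WT and -0.35 in KO, beside -0.05 and -0.04 over all genes tested. The WT count rested on single arrays: it was 0 without WT untreated replicate 1, 1 without WT untreated replicate 2, 1 without WT DSS replicate 2, and 8 without the 2 arrays of high pancreatic signal. The averaged count ran from 3 to 12 when each array was left out in turn.

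**Figure D2:**
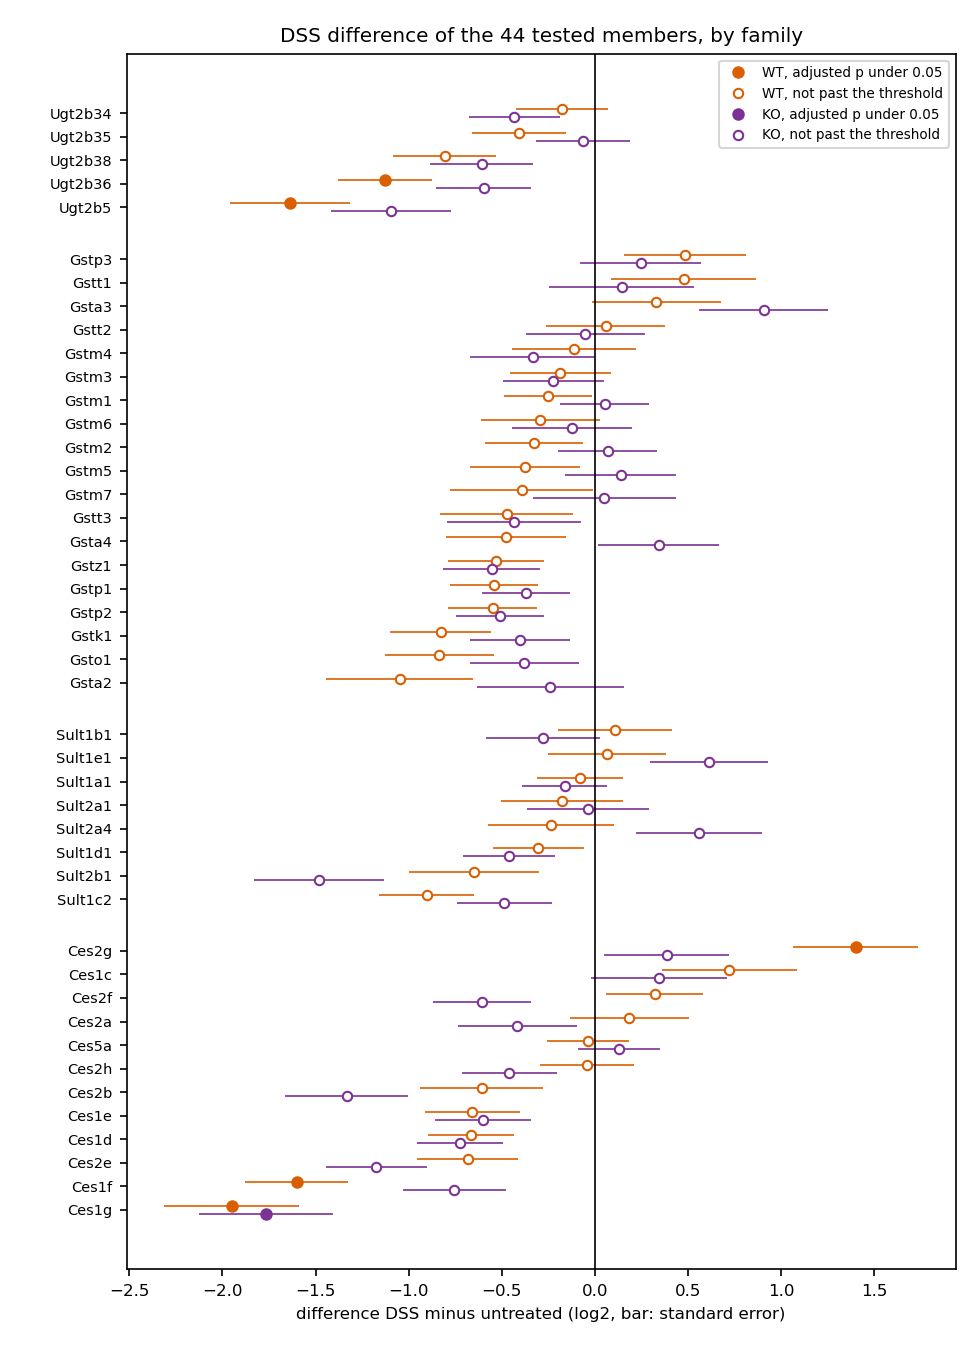
DSS minus untreated difference (log2, horizontal axis, bars are SE) of the 44 tested genes by family, WT in orange and KO in purple, filled where adjusted p was under 0.05. The 5 filled WT points are Ugt2b5, Ugt2b36, Ces2g, Ces1f and Ces1g, the filled KO point is Ces1g, and no Gst is filled.

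Among the glucuronosyltransferases the 5 tested genes, all Ugt2b, had DSS differences below 0 in both genotypes, with a median of -0.81 in WT and -0.60 in KO. The WT median is the value of Ugt2b38, which was at or below background in both WT DSS arrays. The differences of Ugt2b5 and Ugt2b36 passed in WT. These belong to the Ugt2b group, whose members conjugate steroids, bile acids and many drugs. The 8 measured Ugt genes lie with Sult1b1, Sult1d1 and Sult1e1 in 1 run of neighbouring family genes on chromosome 5 in the assembly GRCm38.p6. The 80 bases before the start of each of the 7 Ugt2b genes, from RefSeq on GRCm38.p6, are shown because neighbours in this run differed in their DSS values. Capitals mark a run of 22 bases that 4 of them share.
Ugt2b5 (chr5:87140341-87140420, minus strand): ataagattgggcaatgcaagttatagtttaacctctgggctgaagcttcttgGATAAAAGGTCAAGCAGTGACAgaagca
Ugt2b36 (chr5:87092556-87092635, minus strand): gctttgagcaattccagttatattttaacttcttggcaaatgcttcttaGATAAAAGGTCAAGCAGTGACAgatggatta
Ugt2b38 (chr5:87424204-87424283, minus strand): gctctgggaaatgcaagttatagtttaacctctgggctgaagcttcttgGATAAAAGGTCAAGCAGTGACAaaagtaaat
Ugt2b37 (chr5:87254789-87254868, minus strand): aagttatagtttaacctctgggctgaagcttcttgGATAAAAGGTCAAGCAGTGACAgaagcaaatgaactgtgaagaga
Ugt2b35 (chr5:87000780-87000859, plus strand): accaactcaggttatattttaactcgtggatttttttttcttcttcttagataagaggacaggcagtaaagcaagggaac
Ugt2b34 (chr5:86906938-86907017, minus strand): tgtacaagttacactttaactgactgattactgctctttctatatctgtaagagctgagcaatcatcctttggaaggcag
Ugt2b1 (chr5:86926504-86926583, minus strand): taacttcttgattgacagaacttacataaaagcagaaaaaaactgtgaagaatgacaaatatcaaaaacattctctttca

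The shared run, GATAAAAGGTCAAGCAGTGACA, was found in 4 of 32851 windows of 250 bases before gene starts (0.0122%, both strands searched), those of Ugt2b5, Ugt2b36, Ugt2b37 and Ugt2b38. It was picked, with the DSS values known, as the longest run common to these 4 genes. The 4 matches were therefore fixed in advance and describe only the letters, and a link to the DSS values was not tested. Its first base lay 28 bases before the start in Ugt2b5, 31 in Ugt2b36 and Ugt2b38, and 45 in Ugt2b37. Ugt2b5 and Ugt2b38 share 62 bases in 1 run that includes it, whereas the longest run that Ugt2b34 shares with any of the other 6 is 10 bases.

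Ugt2b5 gave 10.07 and 10.27 in untreated WT, 8.72 and 8.35 in WT given DSS, 9.78 and 10.05 in untreated KO, and 9.33 and 8.31 in KO with DSS. All 4 DSS arrays lay below all 4 untreated arrays. The difference was -1.64 ± 0.32 in WT (3.11-fold lower, adjusted p = 0.0143) and passed there, -1.10 ± 0.32 in KO (adjusted p = 0.218), which did not, and -1.37 ± 0.23 averaged (adjusted p = 0.00412). The averaged call held in all 17 alternatives, and the WT call was lost without either untreated WT array or WT DSS replicate 2. Without the 2 arrays of high pancreatic signal, which leaves 1 DSS array in KO, the KO difference was -1.61 and its call changed.

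Ugt2b36 gave 8.77 and 8.22 in untreated WT, 7.37 and 7.36 in WT given DSS, 8.17 and 7.96 in untreated KO, and 7.59 and 7.34 in KO with DSS. Here too no DSS array reached any untreated array. It fell by 1.13 ± 0.25 in WT (2.19-fold, adjusted p = 0.0295) and by 0.86 ± 0.18 averaged (adjusted p = 0.0155), and its KO difference of -0.60 ± 0.25 did not pass. The WT call was lost without WT untreated replicate 1, either WT DSS array or either untreated KO array.

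The other genes that carry the shared run were dim. Ugt2b38 gave 6.19 and 6.64 in untreated WT, 5.44 and 5.78 in WT given DSS, 6.77 and 6.23 in untreated KO, and 5.73 and 6.05 in KO with DSS, and both WT DSS arrays were at or below background. Its differences of -0.81 ± 0.28 in WT and -0.61 ± 0.28 in KO did not pass. Ugt2b37 lay between 4.38 and 5.09 in all arrays, under the background, and was not tested. Of the genes without the run, Ugt2b34 stayed between 15.39 and 16.17 in all 8 arrays, with differences of -0.18 ± 0.25 in WT (95% interval -0.71 to 0.36) and -0.43 ± 0.25 in KO. Ugt2b35 lay between 8.45 and 9.24 and differed by -0.41 ± 0.26 in WT and -0.07 ± 0.26 in KO, neither of which passed. Ugt2b1 and Ugt2a3 were under the background in all groups.

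Of 5 genes for making and moving UDP-glucuronate, the donor for this family, 1 passed with DSS in each genotype and averaged, where 4.04%, 0.931% and 5.52% of all genes passed. It was Slc35d1, which carries UDP-glucuronate into the endoplasmic reticulum. Slc35d1 gave 12.13 and 12.52 in untreated WT, 11.04 and 11.16 in WT given DSS, 12.60 and 12.72 in untreated KO, and 11.64 and 11.14 in KO with DSS. The DSS and untreated arrays did not overlap. It fell by 1.22 ± 0.25 in WT (adjusted p = 0.0194), by 1.27 ± 0.25 in KO (adjusted p = 0.0438) and by 1.25 ± 0.18 averaged (adjusted p = 0.00155). The WT call was lost without any 1 of the 4 WT arrays and the KO call in 11 of 18 alternatives, 8 of them with 1 array left out, while the averaged call held in all 17. The 4 others, among them Ugdh, which makes UDP-glucuronate, did not pass in any of the 6 comparisons.

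Among the carboxylesterases 3 of 12 tested genes passed in WT, 1 in KO and 5 averaged, where 4.04%, 0.931% and 5.52% of all genes passed. The median difference of the 12 was -0.33, -0.60 and -0.44. In GRCm38.p6 the measured Ces genes form 2 runs on chromosome 8, with the Ces1 genes and Ces5a in a run of 8 and the Ces2, Ces3 and Ces4a genes in a run of 9. Of the Ces1 genes tested, Ces1g, Ces1f and Ces1d were lower with DSS averaged over genotypes, and of the Ces2 genes Ces2e and Ces2b were lower while Ces2g rose in WT.

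Ces1g, a lipid-ester hydrolase, gave 12.38 and 12.51 in untreated WT, 10.91 and 10.08 in WT given DSS, 13.14 and 13.22 in untreated KO, and 11.96 and 10.87 in KO with DSS. Each DSS array was below every untreated array of either genotype, and untreated KO was the highest group. Ces1g fell by 1.95 ± 0.36 in WT (3.87-fold, adjusted p = 0.00991), by 1.77 ± 0.36 in KO (3.40-fold, adjusted p = 0.0479) and by 1.86 ± 0.25 averaged (adjusted p = 0.00119). The averaged call held in all 17 alternatives. The WT call was lost without either untreated WT array or without WT DSS replicate 2, and the KO call in 8 of 18 alternatives, 5 of them with 1 array left out.

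Ces1f, a triacylglycerol hydrolase of the endoplasmic reticulum, gave 12.53 and 12.45 in untreated WT, 10.82 and 10.96 in WT given DSS, 12.42 and 13.09 in untreated KO, and 12.23 and 11.76 in KO with DSS. The WT DSS arrays stood below all 6 others, and the KO DSS arrays lay between them and the untreated arrays. Ces1f fell by 1.60 ± 0.28 in WT (3.03-fold, adjusted p = 0.00655) and by 1.18 ± 0.19 averaged (adjusted p = 0.00407). Its KO difference of -0.75 ± 0.28 did not pass (adjusted p = 0.356), and the difference between the genotypes' DSS changes, 0.85 ± 0.39 (95% interval -0.01 to 1.70), did not pass either (adjusted p = 0.908). With DSS, Ces1f was 1.11 ± 0.28 higher in KO than in WT with no overlap, which did not pass (adjusted p = 0.169). The WT call was lost when either untreated WT array was left out.

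Ces1d, also a triacylglycerol hydrolase, gave 9.25 and 9.07 in untreated WT, 8.68 and 8.31 in WT given DSS, 9.15 and 9.05 in untreated KO, and 8.34 and 8.41 in KO with DSS. Its groups did not overlap between DSS and untreated, and the averaged difference was -0.69 ± 0.16 (adjusted p = 0.0292). That call was lost in 6 of 17 alternatives, each with 1 array left out: either untreated WT array, either untreated KO array, WT DSS replicate 2 or KO DSS replicate 1. The other tested genes of this run, Ces1c, Ces1e and Ces5a, did not pass in any comparison, and Ces1a and Ces1b were under the filter.

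Ces2e gave 13.05 and 13.12 in untreated WT, 12.55 and 12.25 in WT given DSS, 13.28 and 13.08 in untreated KO, and 11.65 and 12.37 in KO with DSS. Ces2b, in the same run, gave 10.99 and 11.63, 10.45 and 10.95, 12.23 and 11.82, and 10.31 and 11.08 in the same order. For Ces2e the DSS arrays were all below the untreated arrays, while for Ces2b KO DSS replicate 2, at 11.08, lay above the lower untreated WT array. Averaged over genotypes Ces2e fell by 0.93 ± 0.19 (adjusted p = 0.0158) and Ces2b by 0.97 ± 0.23 (adjusted p = 0.0319). In KO alone the differences were -1.17 ± 0.27 for Ces2e (adjusted p = 0.0872) and -1.33 ± 0.33 for Ces2b (adjusted p = 0.114), with no overlap, and neither passed. Both KO calls changed without KO DSS replicate 2, where the differences were -1.53 and -1.72. The KO call of Ces2e also changed with limma's trend and robust moderation. The averaged call of Ces2e was lost in 4 of 17 alternatives (without either untreated WT array, WT DSS replicate 2 or untreated KO replicate 1). That of Ces2b was lost in 7, among them quantile normalization and leaving out the 2 arrays of high pancreatic signal, where the difference was -0.65.

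Ces2g moved the other way. It gave 9.95 and 9.23 in untreated WT, 11.16 and 10.82 in WT given DSS, 9.96 and 10.28 in untreated KO, and 10.07 and 10.94 in KO with DSS. Both WT DSS arrays and KO DSS replicate 2 stood above all untreated arrays, and KO DSS replicate 1 did not. Ces2g rose by 1.40 ± 0.33 in WT (2.64-fold, adjusted p = 0.0402), and its KO difference of 0.38 ± 0.33 did not pass. The interaction was -1.01 ± 0.47 (95% interval -2.05 to 0.02, adjusted p = 0.917) and did not pass. The posterior Hox list (6 genes that mark the distal gut) had means of 7.58 to 7.75 in untreated WT, 8.91 to 9.02 in WT given DSS and 7.40 to 7.87 in untreated KO, and of 7.13 in KO DSS replicate 1 and 8.43 in replicate 2. Hoxd11 and Hoxd13 of that list passed in WT, Hoxd10 was at or below background throughout, and the part of this pattern in the Ces2g result was not tested. The Ces2g call was lost in 8 of 18 alternatives: with array medians set equal, with a replicate block, and without any 1 of the WT or untreated KO arrays. Ces2a, in the same run, lay between 12.25 and 13.57 and did not pass in any comparison.

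**Figure D3:**
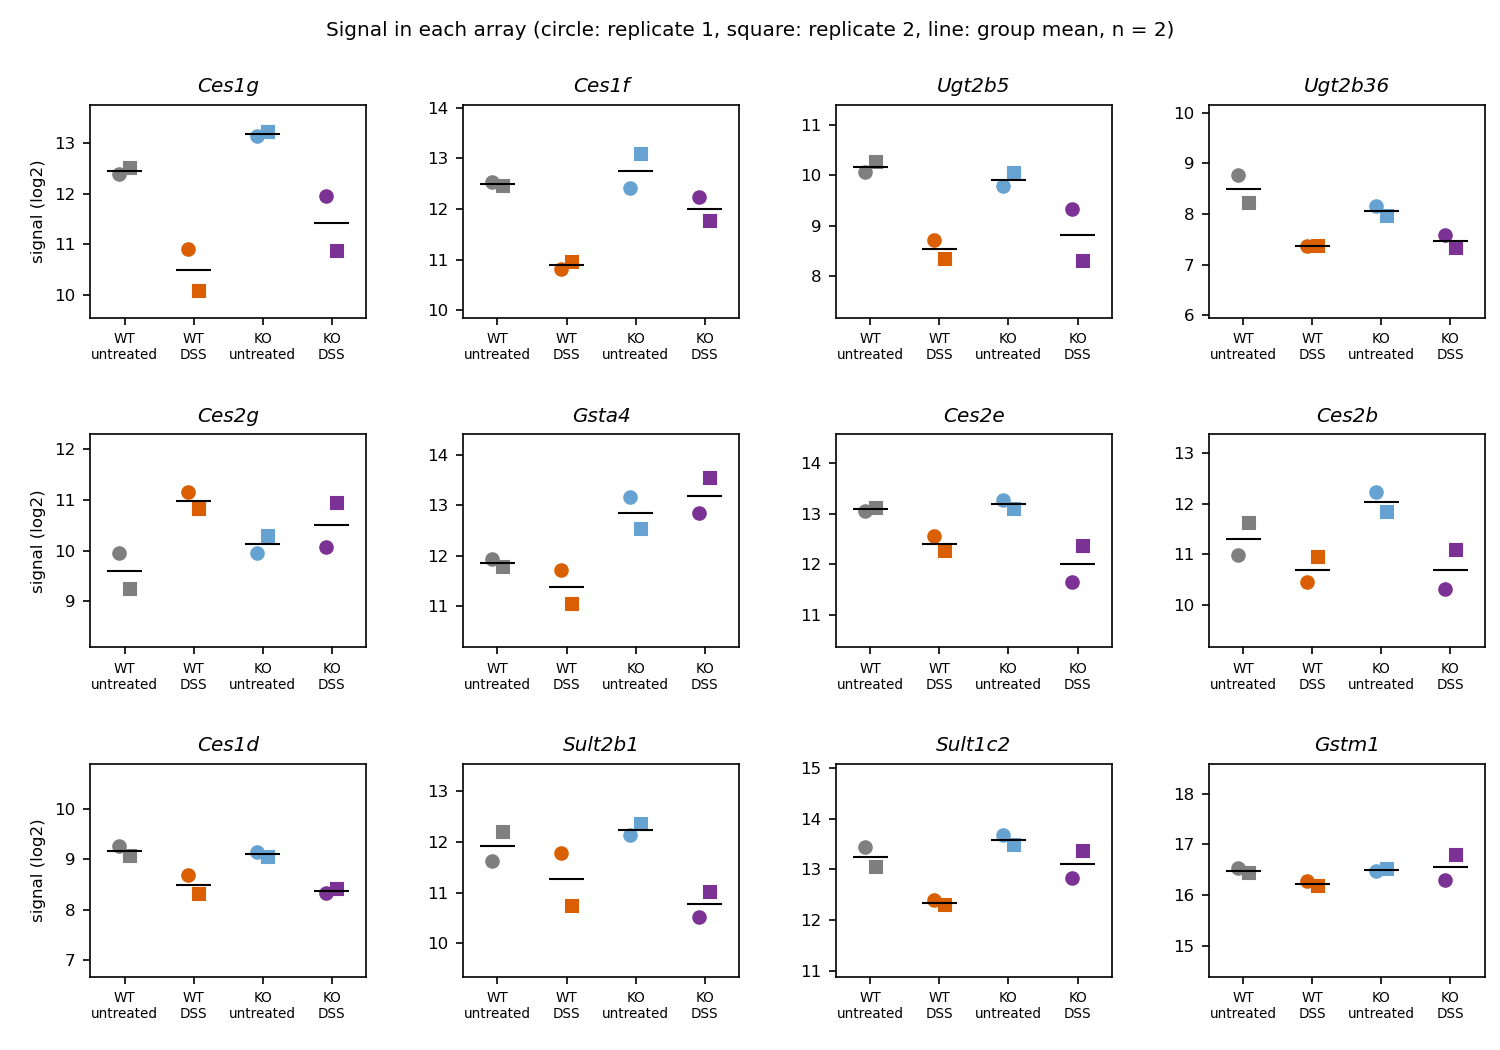
Log2 signal in each array of the 11 genes past the threshold in any comparison, by group, with group means as lines (n = 2), with Gstm1 as a gene that did not pass. Every panel spans the same number of log2 units, and the DSS arrays of Ces1g, Ugt2b5 and Ugt2b36 lie below all untreated arrays.

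Of 15 tested ester hydrolases outside the Ces family, 1 fell in WT, 2 in KO and 3 averaged, and none rose with DSS, where 4.04%, 0.931% and 5.52% of all genes passed. Nceh1, which hydrolyses cholesterol esters, gave 14.05 and 13.84 in untreated WT, 13.04 and 12.58 in WT given DSS, 14.68 and 14.09 in untreated KO, and 12.91 and 12.41 in KO with DSS. It fell by 1.72 ± 0.29 in KO (adjusted p = 0.0188, lost in 3 of 18 alternatives, among them leaving out either untreated KO array) and by 1.43 ± 0.20 averaged (adjusted p = 0.00152). Bche, butyrylcholinesterase, fell by 1.44 ± 0.27 in KO (adjusted p = 0.0359, lost in 8 of 18 alternatives) and by 1.26 ± 0.19 averaged (adjusted p = 0.00231).

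Aadac, arylacetamide deacetylase of the endoplasmic reticulum, was the gene of that list that fell in WT. It gave 11.61 and 11.41 in untreated WT, 5.97 and 6.31 in WT given DSS, 11.18 and 10.99 in untreated KO, and 10.43 and 11.19 in KO with DSS. Only the WT DSS arrays were low, and 1 of these 2 was at or below background. With that array set to its background Aadac was at least 40.9-fold lower with DSS in WT, and the fitted difference, limited by the background in the same way, was -5.37 ± 0.28 (adjusted p = 1.66e-06). It differed by -0.27 ± 0.28 in KO (adjusted p = 0.848), and had a fitted interaction of 5.10 ± 0.40 (adjusted p = 0.000200), at least 5.08 with the background as floor, that held in all 17 alternatives.

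Sulfotransferases had 8 tested genes, and none passed for DSS in a single genotype, where 4.04% (WT) and 0.931% (KO) of all genes passed. Most of the 21 were dim: 13 were under the filter, among them 6 of the 8 Sult2a genes, which sulfate hydroxysteroids and bile acids. The 8 tested genes included Sult2a1 and Sult2a4, at or below background in every array, and Sult1e1, at or below it in all but 1 KO DSS array. Of the cytosolic phenol and amine sulfotransferases, Sult1a1 lay between 15.41 and 15.91 in all arrays and Sult1d1 between 15.25 and 15.95. Their DSS differences were -0.08 ± 0.23 and -0.30 ± 0.25 in WT, with 95% intervals of -0.59 to 0.43 and -0.84 to 0.23, and neither passed. In KO the differences were -0.16 and -0.46, which did not pass either.

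Sult2b1, a hydroxysteroid and cholesterol sulfotransferase, gave 11.62 and 12.20 in untreated WT, 11.79 and 10.74 in WT given DSS, 12.13 and 12.36 in untreated KO, and 10.52 and 11.01 in KO with DSS. The KO groups did not overlap, and the WT groups did. The KO difference of -1.48 ± 0.35 did not pass (adjusted p = 0.0941), a call that changed when either WT DSS array was left out. The averaged difference of -1.06 ± 0.25 passed (adjusted p = 0.0277), with 5 of 17 alternatives losing the call. Each of these left out 1 array (untreated WT replicate 2, WT DSS replicate 2, either untreated KO array or KO DSS replicate 1). Sult1c2 gave 13.44 and 13.06 in untreated WT, 12.40 and 12.29 in WT given DSS, 13.68 and 13.49 in untreated KO, and 12.84 and 13.36 in KO with DSS. Its averaged difference of -0.69 ± 0.18 passed narrowly (adjusted p = 0.0490), and 10 of 17 alternatives lost the call, among them 7 that left out 1 array. Without the 2 arrays of high pancreatic signal it was -0.59 and did not pass.

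Of 8 tested genes for sulfate uptake and PAPS synthesis, 1 passed in each genotype and averaged, where 4.04%, 0.931% and 5.52% of all genes passed. It was Slc13a1, a sodium-sulfate cotransporter. Slc13a1 gave 12.48 and 12.23 in untreated WT, 9.80 and 10.50 in WT given DSS, 13.18 and 12.68 in untreated KO, and 8.50 and 9.45 in KO with DSS. The lowest values were those of KO with DSS, and no DSS array reached an untreated array. It fell by 2.21 ± 0.35 in WT (4.62-fold, adjusted p = 0.00404, lost without untreated WT replicate 1) and by 3.96 ± 0.35 in KO (15.5-fold, adjusted p = 0.000486), and the interaction of -1.75 ± 0.49 did not pass (adjusted p = 0.439). Papss2, which makes PAPS, did not pass in any of the 6 comparisons.

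Glutathione S-transferases gave no DSS call in either genotype or averaged, for 19 tested genes, where 4.04%, 0.931% and 5.52% of all genes passed. At an unadjusted limma p under 0.05 there were 5 of the 19 in WT, 1 in KO and 7 averaged. Over all 13003 genes tested there were 2004, 1238 and 2283. The smallest adjusted p of the 19 was 0.139, 0.384 and 0.0968. The median difference was -0.38 in WT and -0.12 in KO. Without the 2 arrays of high pancreatic signal these medians were -0.68 and 0.17, so the sign of the KO median turned. Gstm1 lay between 16.19 and 16.80 in all arrays, Gsto1 between 14.01 and 15.27, and Gstp1 between 14.23 and 15.36. They belong to the mu, omega and pi classes of the family. Gsta2, an alpha-class enzyme, gave 11.38 and 12.20 in untreated WT and 10.83 and 10.65 in WT given DSS, without overlap, and its difference of -1.05 ± 0.40 did not pass (adjusted p = 0.211).

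The alpha-class gene Gsta4, whose enzyme conjugates the lipid peroxidation product 4-hydroxynonenal, differed by genotype. Gsta4 gave 11.94 and 11.79 in untreated WT, 11.72 and 11.05 in WT given DSS, 13.16 and 12.54 in untreated KO, and 12.84 and 13.54 in KO with DSS. All 4 KO arrays lay above all 4 WT arrays. All 11 smooth muscle genes were also higher in KO in both treatments, and with DSS 2 posterior Hox genes passed as lower in KO. All 15 fibroblast genes were higher in KO without DSS, and 3 passed. With DSS 10 of them were higher and 5 lower, and none passed. The part of these lists in the Gsta4 result was not tested. With DSS it was 1.80 ± 0.32 higher in KO (3.49-fold, adjusted p = 0.0458), and without DSS the difference of 0.98 ± 0.32 did not pass (adjusted p = 0.391). The interaction of 0.82 ± 0.46 (95% interval -0.19 to 1.82) did not pass either (adjusted p = 0.956). The call with DSS was lost in 9 of 18 alternatives: with no filter, array medians set equal, array weights or a replicate block, and without either untreated WT array, either WT DSS array or KO DSS replicate 2. Over those 18 the difference ran from 1.45 to 2.48, with adjusted p from 0.0124 to 0.210. Gsta3, another alpha-class gene, gave 9.70 and 9.29 in WT with DSS and 10.22 and 10.94 in KO with DSS, a difference of 1.08 ± 0.35 that did not pass (adjusted p = 0.318). The remaining tested alpha-class gene, Gsta2, went the other way. Its KO against WT differences were -0.996 without DSS and -0.186 with DSS, and neither passed.

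Gsta4 was the 1 gene of 44 (2.27%) that passed for KO against WT with DSS, where 0.354% of all genes passed (0.115% higher in KO). For KO against WT without DSS 0 of 44 passed with limma, against 0.392% of all genes. There 3 of the 44 had an unadjusted limma p under 0.05, beside 822 of all 13003 genes. For the interaction 0 of 44 passed, against 0.0769% of all genes, and 1 had an unadjusted p under 0.05, beside 709 of 13003. The trend and robust moderation of limma also gave 0 for both.

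**Figure D4:**
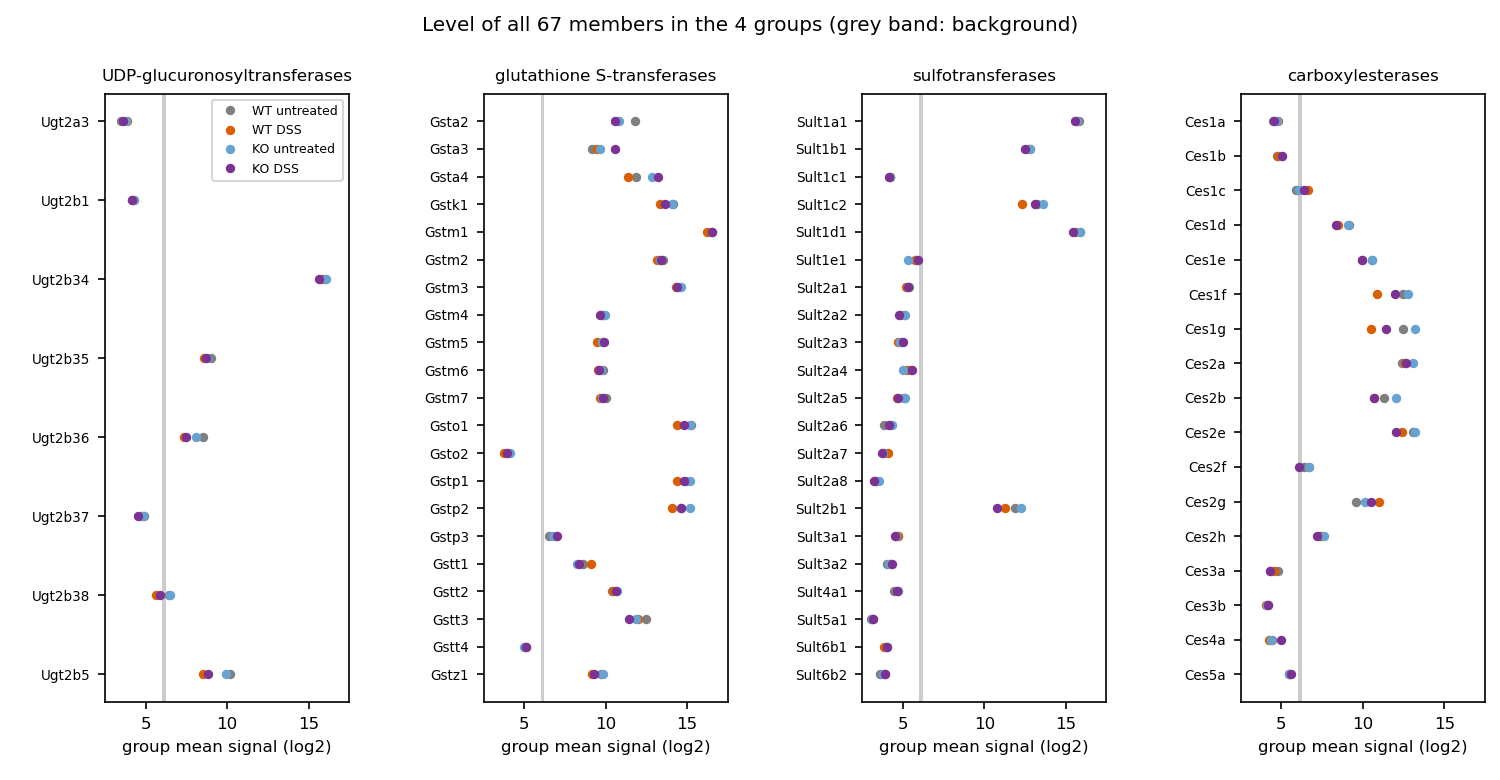
Group mean log2 signal (horizontal axis, n = 2 arrays) of all 67 genes, by family and in alphabetical order, with the array background of 6.00 to 6.24 as a grey band. The widest spreads between group means belong to Ces1g, Ces1f, Gsta4 and Ugt2b5, and many Sult and Ces genes lie left of the band in all groups. Signals of different genes are not comparable.

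Of 14 tested genes for making and recycling glutathione, 1 passed in WT, 0 in KO and 2 averaged, against the same 4.04%, 0.931% and 5.52% of all genes. Dpep1, a brush-border dipeptidase that splits cysteinylglycine, fell by 1.55 ± 0.24 in WT (adjusted p = 0.00323) and by 1.30 ± 0.17 averaged (adjusted p = 0.000746). Anpep, an aminopeptidase, rose by 0.78 ± 0.17 averaged (adjusted p = 0.0189), a call lost in 4 of 17 alternatives, among them leaving out the 2 arrays of high pancreatic signal (0.70). Among the 5 membrane-bound glutathione transferase relatives, Ptges, the inducible prostaglandin E synthase, gave 6.61 and 6.28 in untreated WT, 7.75 and 7.96 in WT given DSS, 6.08 and 6.59 in untreated KO, and 7.59 and 7.26 in KO with DSS. Ptges rose by 1.41 ± 0.26 in WT (adjusted p = 0.0103, lost without untreated WT replicate 2 or WT DSS replicate 2) and by 1.25 ± 0.18 averaged (adjusted p = 0.00191). Of 10 other phase II transferases tested, Ugt8a, which adds galactose to ceramide, was lower with DSS in WT (adjusted p = 0.0225, lost without any 1 of the 4 WT arrays), at least 2.13-fold because both WT DSS arrays were at or below background.

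Of 14 tested transporters of conjugates, bile acids and other organic anions, 2 fell and 1 rose in WT, 4 fell in KO, and 5 fell and 1 rose averaged, where 1.12%, 0.392% and 2.05% of all genes fell. Slc51a, a subunit of the basolateral bile acid and steroid transporter, gave 12.10 and 11.76 in untreated WT, 9.47 and 9.25 in WT given DSS, 11.73 and 11.99 in untreated KO, and 9.59 and 8.47 in KO with DSS. The DSS arrays lay well below the untreated arrays in both genotypes. Slc51a fell by 2.57 ± 0.33 in WT (adjusted p = 0.00106) and by 2.83 ± 0.33 in KO (adjusted p = 0.00444). Slc51b, the other subunit, fell by 1.94 ± 0.33 in WT (adjusted p = 0.00587, lost without untreated WT replicate 2) and by 1.64 ± 0.33 in KO (adjusted p = 0.0442, lost in 11 of 18 alternatives). Abcg2, an apical efflux pump for sulfates and other conjugates, fell by 1.17 ± 0.22 in KO (adjusted p = 0.0376, lost in 9 of 18 alternatives) and by 0.95 ± 0.16 averaged (adjusted p = 0.00430).

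**Figure D5:**
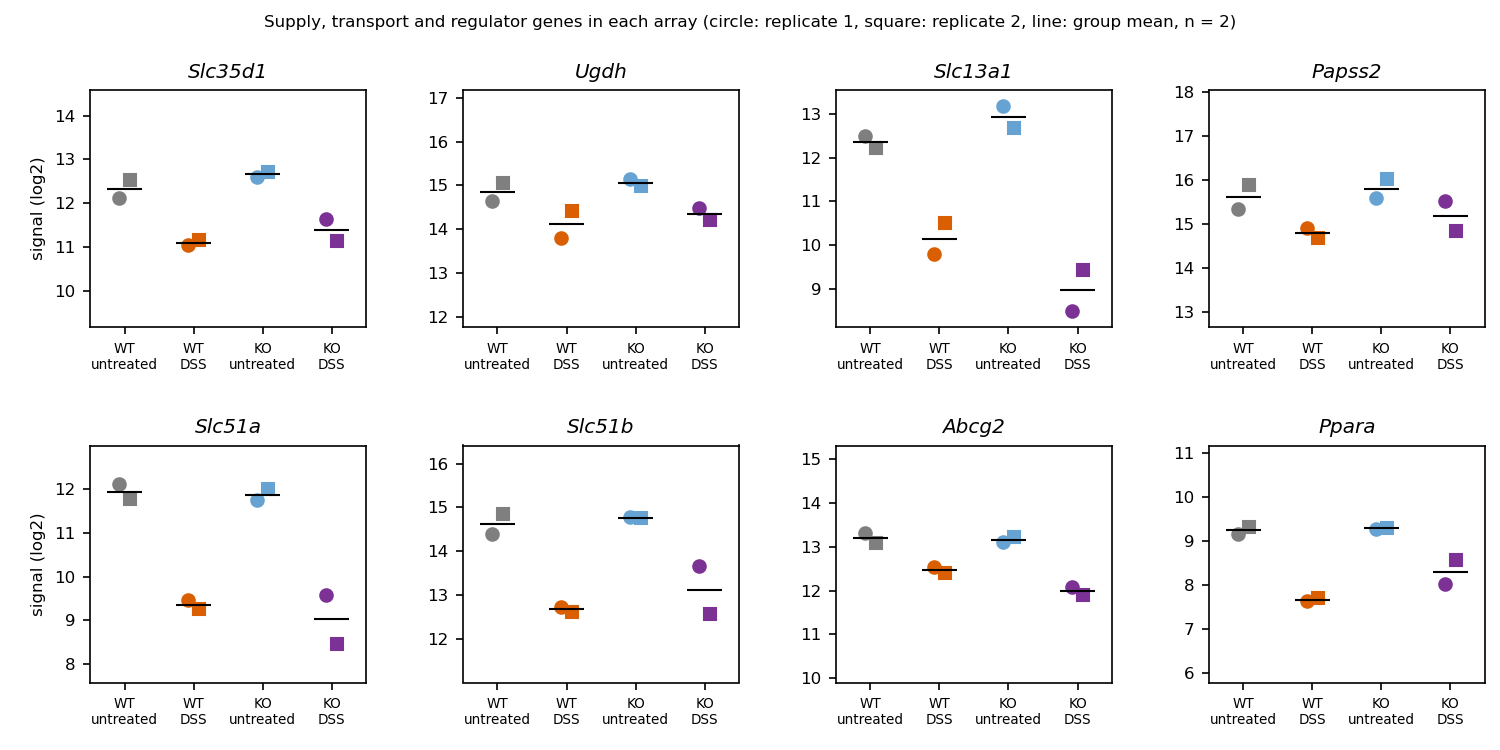
Log2 signal in each array of genes for donor supply (Slc35d1, Ugdh, Slc13a1, Papss2), conjugate transport (Slc51a, Slc51b, Abcg2) and the receptor Ppara, by group, with group means as lines (n = 2). The DSS arrays lie below the untreated arrays for Slc35d1, Slc13a1, Slc51a, Slc51b, Abcg2 and Ppara.

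Receptors known to control these enzymes mostly did not pass. Of 18 tested, Ppara, a fatty acid receptor, fell in WT and both Ppara and Pparg fell averaged, where 1.12% and 2.05% of all genes fell. Ppara gave 9.17 and 9.32 in untreated WT, 7.64 and 7.70 in WT given DSS, 9.28 and 9.30 in untreated KO, and 8.02 and 8.57 in KO with DSS. It fell by 1.58 ± 0.24 in WT (adjusted p = 0.00359) and by 1.29 ± 0.17 averaged (adjusted p = 0.00102), and Pparg fell by 0.70 ± 0.17 averaged (adjusted p = 0.0308, lost in 7 of 17 alternatives). Nr1i2, Ahr, Nfe2l2 and Hnf4a, which encode PXR, AHR, NRF2 and HNF4A, did not pass in any of the 6 comparisons.

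Lists of genes that those factors are known to control, without the 67, gave the counts below, as did phase I oxidation genes. These lists are not separate. Cyp2b10 is in both the PXR and CAR list and the phase I list, and Abcc2 in both the PXR and CAR list and the transporter list. Both genes were at or below background in every group. Of all genes, 4.04% passed in WT (1.12% lower), 0.931% in KO (0.392% lower) and 5.52% averaged (2.05% lower). Of 16 NRF2 targets, 0 passed in WT or KO, and Srxn1 and Taldo1 were lower averaged, with differences of -1.05 ± 0.22 and -0.73 ± 0.18 whose calls were lost in 4 and 7 of 17 alternatives. Of 11 PXR and CAR targets, 1 fell in WT, 3 in KO and 5 averaged. They included Aldh1a1, which oxidises retinal and fell by 1.35 ± 0.28 in WT and by 1.78 ± 0.28 in KO (each lost in 3 of 18 alternatives), and Cyp2c65 and Cyp2c66, cytochromes that fell by 1.50 ± 0.28 and by 1.40 ± 0.28 in KO, calls lost in 7 and 10 of 18 alternatives. The 3 tested AHR targets did not pass. Of 24 phase I oxidation genes, 4 fell and 3 rose in WT, 7 fell and 1 rose in KO, and 10 fell and 2 rose averaged. Cyp2d26, a cytochrome, fell by 2.94 ± 0.29 in WT and by 2.36 ± 0.29 in KO, and was 1.74 ± 0.29 higher in KO than in WT with DSS (adjusted p = 0.0291, lost in 7 of 18 alternatives). Fmo1, a flavin monooxygenase, rose by 2.62 ± 0.26 in WT and by 1.51 ± 0.26 in KO (the KO call lost in 3 of 18 alternatives). Akr1c19, an aldo-keto reductase, gave 7.01 and 7.54 in WT with DSS and between 10.51 and 12.17 in the other arrays.

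Promoter windows from RefSeq on GRCm38.p6, the 250 bases before each start, were matched for 57 of the 67 genes, with 69 windows. The antioxidant response element core TGACNNNGC was found in 3 of the 69 (4.35%) and in 10.2% of all 32851 windows, on either strand. The 3 were Gsta3 with TGACATTGC, Gstm5 with TGACCACGC and Gstm7 with TGACAAAGC. The dioxin response element core GCGTG was found in 9 of 69 (13.04%) against 28.2% of all, and in Gstm5 it overlaps the antioxidant core. A core of the HNF1 site, GTTAAT, was found in 11 of 69 (15.9%) against 6.43% of all, and 7 of the 11 windows were those of Sult genes. Among the 11, Ces3b, Ugt2a3, Sult2a3, Sult2a5, Sult2a6 and Sult3a2 were not tested, and Ces5a and Sult2a4 lay at or below background in every array. None of the 11 genes passed in any comparison. The windows of Sult2a3, Sult2a4, Sult2a5 and Sult2a6 share a longer run that includes the core, so these are not separate finds. The HNF4 site CAAAGTCCA was in 0 of 69 and in 0.384% of all, which says only that these letters are not in these windows.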

How the data were processed

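Total RNA of colon epithelial cells was labelled as single-stranded DNA and hybridised to 8 Affymetrix arrays, per the labels' protocols. The log2 values were deposited by the authors and made with Affymetrix Expression Console, per the submitters' processing notes. The sources used here do not give its normalization or background correction. Control rows (6640 of 28846) were left out, and the row of highest mean was kept per gene. The lowest 33.3% of genes by mean (under 5.15) were left out.

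The model, run in limma 3.58.1 (R 4.3.3), had 4 group means over all 8 arrays (two-sided, Benjamini-Hochberg over 13003 genes, threshold 0.05, 95% intervals), and checked on simulated data. The smallest p that an exact permutation test of 2 against 2 could give is 0.333, so none was run. Precision is limited by the number of arrays, whose medians lay between 5.93 and 6.09. A bound ("at least") sets the brighter group's mean against the mean background of the dimmer group's arrays.

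The genes and lists were chosen with earlier results of these data known. Named were members past the threshold, the 3 of highest mean per family, up to 4 per direction and comparison that changed by at least 1 without overlap, and up to 3 called genes per list. The shared promoter run, Ugt2b38, Ugt2b37, Ugdh, Papss2 and the receptors that did not pass were added after their values were seen.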

Additional observations from a re-analysis of the deposited data

Results flagged for a closer look

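Among the genes whose values are given above, the DSS change differed between the genotypes by limma's interaction test for 2, both outside the enzyme families. In the small intestine list 1 gene, not described here, also passed that test, with a difference below 0. For Aadac the fitted difference between the DSS changes of KO and WT was 5.10 ± 0.40 on the log2 scale (adjusted p = 0.000200), limited by the background because 1 of the 2 WT DSS arrays lay at or below it, and at least 5.08 with the background as floor. For Akr1c19 the DSS change was -4.15 ± 0.30 in WT and -1.12 ± 0.30 in KO, and the difference was 3.03 ± 0.42 (adjusted p = 0.0262). The Akr1c19 call was lost in 6 of 17 alternatives, and that of Aadac in none of 17.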

How the results depend on the processing

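Leaving out each array in turn, the number of the 44 genes past the threshold ran from 0 to 6 for DSS in WT, from 0 to 2 for DSS in KO, from 0 to 1 for KO against WT with DSS and from 3 to 12 for DSS averaged, and stayed at 0 for KO against WT untreated and for the interaction. The Gst median ran from -0.68 to -0.11 for DSS in WT, from -0.38 to 0.17 for DSS in KO and from 0.013 to 0.48 for the interaction. Without the 2 arrays of high pancreatic signal, which leaves 1 DSS array per genotype with a spread taken from the other groups, the count was 8 for DSS in WT and 2 for DSS in KO, the Gst median was -0.68 for DSS in WT, 0.17 for DSS in KO, 0.64 for KO against WT with DSS and 0.59 for the interaction, and the Ces median of the interaction was 0.0096. With no filter on the mean, which adds dim genes, 0 genes passed for DSS in KO and 0 for KO against WT with DSS, and the medians were -0.29 (Ugt, DSS in WT), -0.27 (Ugt, DSS averaged), -0.12 (Ces, DSS averaged), 0.034 (Ugt, interaction) and -0.059 (Ces, interaction). For DSS in KO the count was 0 with quantile normalization, 2 with trend and robust moderation and 0 with only the 4 arrays of that comparison. For KO against WT with DSS it was 0 with array medians set equal, 0 with array weights and 0 with a replicate block. The cause was not tested.

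The labels number the replicates 1 and 2 in every group, and deviations of same-numbered arrays correlated between -0.25 and 0.28 over the 13003 genes, with only 2 pairs per comparison. With the replicate block, 4 genes passed for DSS in WT, 1 for DSS in KO and 8 for DSS averaged. No difference that passed and had its call followed through the 17 or 18 alternatives changed sign in any of them. The same does not hold for every difference given above. For Ces2g in KO, with a difference of 0.38, KO DSS replicate 1 (10.07) lay below the untreated KO mean (10.12). Leaving out KO DSS replicate 2 therefore turns the sign of that difference.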
